A study of Mus musculus with 30 samples.

Results

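The 8 genes described here, Nos2, Gch1, Ass1, Slc7a2, Arg1, Arg2, Acod1 and Ido1, encode the enzymes and the transporter with which a macrophage makes nitric oxide, divides arginine, makes itaconate and breaks down tryptophan. They were chosen by name, and all 8 were found by symbol among the 54146 genes of the count table. RNA-seq was done on J774A.1, a mouse macrophage-like cell line, in 3 wild-type (WT) clones and 2 knockout (KO) clones. Cells were untreated or received interferon-gamma (IFNG) at 100 ng/mL for 4 h, with 3 libraries for every clone in each state and 30 in all. The KO clones, KO1 and KO2, carried a homozygous CRISPR deletion of B2_Mm2.Dicer1, a B2 transposable element in the first intron of Dicer1. The WT clones were grown from single cells but had not been electroporated, so the deletion and the electroporation cannot be told apart. Each clone is a single line, and the methods say that technical replicates were merged after alignment without saying whether the 3 libraries left came from separate cultures, so that p-values within a clone measure the spread between its libraries, which may be technical. No microbial stimulus such as lipopolysaccharide was given.

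In macrophages, Nos2 oxidizes arginine to nitric oxide and citrulline, and needs tetrahydrobiopterin, whose synthesis starts with Gch1. Ass1 turns citrulline back toward arginine, and Slc7a2 is a plasma membrane carrier that takes up arginine. The arginases Arg1 and Arg2 compete for the same arginine and split it into ornithine and urea, and Arg1 is a widely used marker of alternative activation. Acod1 (also called Irg1) makes itaconate from the citrate cycle intermediate cis-aconitate, and Ido1 opens the kynurenine route of tryptophan breakdown. Nos2, Acod1 and Ido1 are known as genes that macrophages switch on strongly when IFNG is joined by a microbial signal.

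The libraries held 15566122 to 37992642 counted fragments (median 23682133.5). Levels are given as CPM, the counts of a gene relative to its library's total, scaled by TMM factors computed over 14870 genes, and a response is the log2 fold change (log2FC) of IFNG over untreated libraries. Genes were tested with edgeR's quasi-likelihood test and called at an FDR-adjusted p-value under 0.05 over all genes tested. Treatment was evident in every clone, with Irf1, an IFNG target that codes for a transcription factor, at 16.7 to 26.1 CPM in the untreated and 698 to 960 CPM in the treated libraries. Dicer1, the gene that holds the deleted element, was lower in KO than in WT libraries (log2FC -0.43 ± 0.11 SE untreated and -0.80 ± 0.09 SE after IFNG, edgeR adjusted p = 0.00689 and 1.35e-05). All 9 macrophage markers on a list (Adgre1, Csf1r, Cd68 and others) reached 1 CPM. Their summed level was 4288 to 4795 CPM in WT1 and 5231 to 6921 CPM in the other 4 clones, and the part of this difference in the results for WT1 was not tested. No T cell, B cell or epithelial marker reached a mean of 1 CPM in any clone and treatment. Of 6 fibroblast, 4 neutrophil and 3 endothelial markers, 1, 1 and 2 did, with sums of 0.331 to 2.92, 1.23 to 3.48 and 1.37 to 3.29 CPM, and S100a9 and Dcn had no fragment. The fibroblast sum, mostly Pdgfra, was 2.61 to 2.92 CPM in untreated WT1 and at most 1.35 CPM in the other untreated clones, and its part in the results for WT1 was not tested.

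Acod1 and Nos2 rose in all 5 clones after IFNG, and no other member that passed the count filter was called higher in any clone. Of the members that passed the count filter, those called were 2 of 6 in WT1, 3 of 5 in WT2, 3 of 5 in WT3, 2 of 5 in KO1 and 3 of 6 in KO2. The share of all tested genes called in the same clones was 21.2%, 34.5%, 36.1%, 29.4% and 27.1%. Of all tested genes, 11.8%, 17.4%, 18.6%, 16.2% and 13.9% were higher, and the shares lower were 9.47%, 17%, 17.5%, 13.2% and 13.2%. The third call in WT2, WT3 and KO2 was a small fall of Slc7a2. Ass1 and Gch1 were tested in every clone and called in none, although Ass1 was called higher in KO1 without the count filter (log2FC 0.19, edgeR adjusted p = 0.0337) and when untreated library 3 of KO1 was left out (0.43, adjusted p = 0.029). Arg1 passed the filter in WT1 and KO2 alone and was called in neither, and Arg2 and Ido1 had too few counts to pass it within any clone. Without the filter, Ido1 was called in WT2, WT3, KO1 and KO2 and Arg2 in WT2. In these bulk libraries, fewer cells that express a gene and less RNA per cell cannot be told apart.

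**Figure D1:**
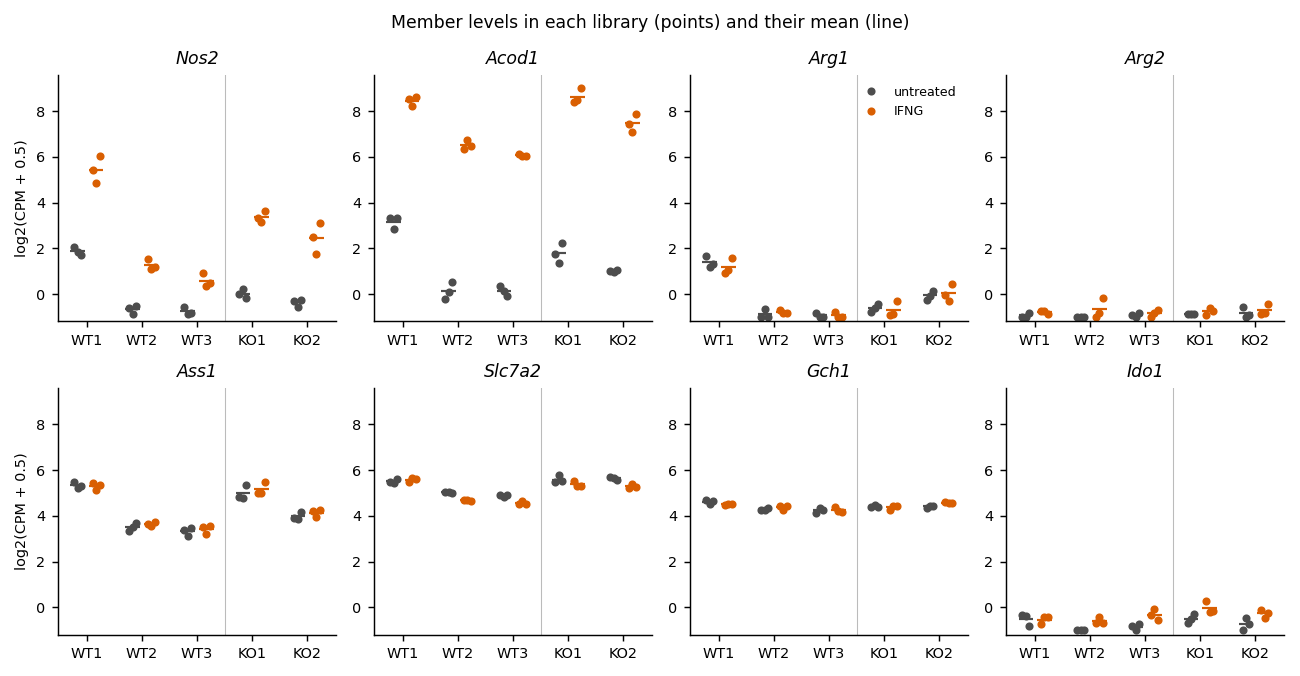
Level of each gene in all 30 libraries as log2(CPM + 0.5), by clone (WT1 to WT3 left of the grey line, KO1 and KO2 right of it), untreated in grey and after IFNG in orange; points are libraries and lines their means. Nos2 and Acod1 are separated by treatment in every clone, while Ass1 ranges from 8.14 to 44.8 CPM over the clones with treated and untreated libraries overlapping in each, and Arg2 and Ido1 lie near the bottom of the axis.

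Acod1 (ENSMUSG00000022126.6, chr14:103046977-103056573 in mm10, plus strand) showed the larger response. In WT1 the untreated libraries held 6.63, 9.50 and 9.51 CPM and the treated ones 299, 372 and 393 CPM. In WT2 the level went from 0.365, 0.548 and 0.943 CPM to 81.6, 88.5 and 106 CPM. In WT3 it went from 0.444, 0.600 and 0.781 CPM to 64.8, 65.1 and 70.3 CPM. Treated and untreated libraries were thus far apart in each WT clone, and WT1 started from a higher level. KO1 libraries held 2.05, 2.86 and 4.24 CPM untreated and 342, 355 and 518 CPM after IFNG. KO2 libraries held 1.46, 1.53 and 1.58 CPM untreated and 136, 173 and 233 CPM after IFNG. Treated and untreated libraries did not overlap in either KO clone. The fitted change was 41.3-fold in WT1 (log2FC 5.37 ± 0.14 SE), 155-fold in WT2 (7.27 ± 0.16), 105-fold in WT3 (6.72 ± 0.11), 135-fold in KO1 (7.08 ± 0.21) and 118-fold in KO2 (6.88 ± 0.21). The adjusted p-values of edgeR ranged from 6.71e-19 in WT2 to 4.53e-12 in KO1. Ordered by log2FC, Acod1 stood at place 41 of 14088 genes tested in WT1 and at place 27 of 13090 in WT2, with places 33, 30 and 34 in WT3, KO1 and KO2.

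The promoter of Acod1 is shown beside those of Ass1 and Gch1, which were called in no clone. They are 3 of the 8 members with a window in the RefSeq promoter table used here (build GRCm38.p6, the same assembly as mm10). Each window runs from 250 bases before to 50 bases after the RefSeq start, 5′ to 3′ on the strand of the gene, at chr14:103046762-103047061 (plus strand) for Acod1, chr2:31470020-31470319 (plus strand) for Ass1 and chr14:47189364-47189663 (minus strand) for Gch1. Capitals mark TATAAA on either strand, the core of a TATA box, a motif that was added after the sequences had been seen.
Acod1: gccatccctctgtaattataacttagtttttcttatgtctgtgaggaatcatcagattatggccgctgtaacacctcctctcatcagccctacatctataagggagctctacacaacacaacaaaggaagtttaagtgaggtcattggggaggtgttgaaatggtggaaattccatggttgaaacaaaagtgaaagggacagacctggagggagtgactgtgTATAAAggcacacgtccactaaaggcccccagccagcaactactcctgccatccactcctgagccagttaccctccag
Ass1: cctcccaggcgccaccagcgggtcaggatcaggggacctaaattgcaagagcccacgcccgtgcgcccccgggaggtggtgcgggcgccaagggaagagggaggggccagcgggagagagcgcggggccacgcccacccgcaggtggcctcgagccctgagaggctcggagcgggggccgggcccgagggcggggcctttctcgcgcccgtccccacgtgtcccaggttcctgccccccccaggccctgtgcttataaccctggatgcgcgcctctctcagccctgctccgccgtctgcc
Gch1: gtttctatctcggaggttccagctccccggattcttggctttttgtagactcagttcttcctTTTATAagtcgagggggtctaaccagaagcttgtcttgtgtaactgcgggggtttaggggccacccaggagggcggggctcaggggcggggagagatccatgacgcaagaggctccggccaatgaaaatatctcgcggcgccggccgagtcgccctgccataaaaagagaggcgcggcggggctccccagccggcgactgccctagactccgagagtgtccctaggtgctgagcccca
In the Acod1 window TATAAA lies at positions -28 to -23 from the start, and in the Gch1 window its reverse complement lies at -188 to -183. The Ass1 window holds none, and 13.6% of the 32817 promoter windows in the table hold 1 or more. Searches on both strands for a GAS motif (TTCNNNGAA), an ISRE motif (GAAA repeated after 2 bases, where IRF factors bind) and a kB motif (GGGA and TCC with 3 bases between, where NF-kB binds) found no match in these 3 windows. Of all windows, 8.29%, 3.43% and 4.60% hold these motifs. A missing match says only that these letters are not in this window. The searches took exact letters only, so similar stretches are not marked, such as cataaaaag in the Gch1 window and cttataac in the Ass1 window.

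Nos2 (ENSMUSG00000020826.8, chr11:78920787-78960254, plus strand) rose by a smaller factor than Acod1. WT1 libraries held 2.75, 3.11 and 3.71 CPM untreated and 28.8, 42.0 and 65.0 CPM after IFNG. WT2 libraries held 0.0422, 0.156 and 0.189 CPM untreated and 1.66, 1.77 and 2.40 CPM treated. WT3 libraries held 0.0428, 0.0555 and 0.178 CPM untreated and 0.783, 0.881 and 1.37 CPM treated. Every treated library lay above every untreated library of its clone, although treated WT2 and WT3 libraries stayed below untreated WT1 libraries. In KO1 the level went from 0.385, 0.497 and 0.671 CPM to 8.50, 9.49 and 12 CPM. In KO2 it went from 0.183, 0.312 and 0.336 CPM to 2.90, 5.18 and 8.04 CPM. Both KO clones were thus above WT2 and WT3 and below WT1 after IFNG, with no overlap with any of these 3 clones. The log2FC was 3.82 ± 0.26 (SE) in WT1, 3.97 ± 0.41 in WT2, 3.31 ± 0.47 in WT3, 4.29 ± 0.21 in KO1 and 4.19 ± 0.41 in KO2. These are changes of 14.2-, 15.7-, 9.91-, 19.6- and 18.3-fold, with adjusted p-values of edgeR from 1.31e-09 in KO1 to 1.78e-05 in WT3. The untreated libraries of WT2 and WT3 held 1 to 5 Nos2 fragments each, so their fold changes rest on 7 fragments per clone. In these clones Nos2 passed the count filter through its treated libraries alone.

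**Figure D2:**
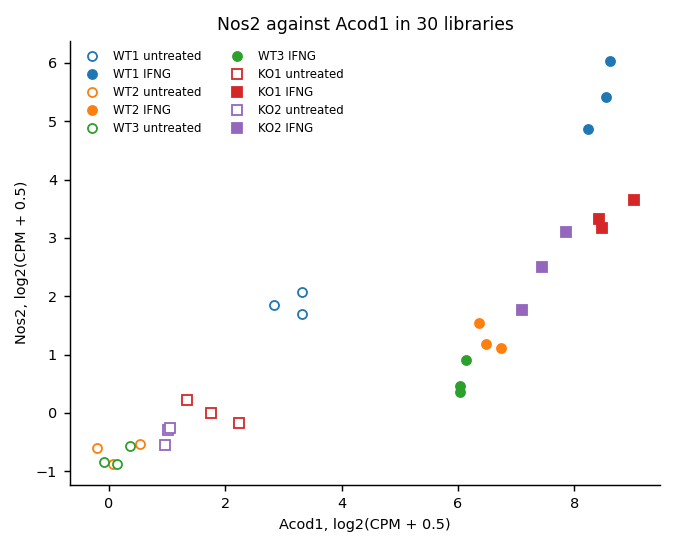
Nos2 against Acod1 in the 30 libraries, both as log2(CPM + 0.5); circles are WT and squares KO clones, open symbols untreated and filled symbols treated libraries. After IFNG, KO1 reaches the Acod1 level of WT1 (342 to 518 against 299 to 393 CPM) but not its Nos2 level (8.50 to 12 against 28.8 to 65.0 CPM).

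The other genes of the nitric oxide arm responded little. Gch1 (ENSMUSG00000037580.10, chr14:47153895-47189413, minus strand) lay between 16.9 and 25.6 CPM in all untreated and between 17.6 and 23.6 CPM in all treated libraries. Its log2FC was -0.13 ± 0.08 (SE) in WT1, 0.11 ± 0.07 in WT2, 0.05 ± 0.08 in WT3 and 0.16 ± 0.06 in KO2, and in KO1 it was within its SE of 0.08 from 0. In KO2 the treated libraries (23, 23.1 and 23.6 CPM) lay above the untreated ones (19.8, 21.3 and 21.4 CPM), with an edgeR adjusted p of 0.0902. Ass1 (ENSMUSG00000076441.9, chr2:31470207-31520672, plus strand) was at 8.14 to 44.0 CPM untreated and 8.62 to 44.8 CPM treated, and treated and untreated libraries overlapped in every clone. The log2FC of Ass1 ranged from -0.02 ± 0.09 (SE) in WT1 to 0.21 ± 0.16 in KO1.

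Slc7a2, the arginine carrier (ENSMUSG00000031596.15, chr8:40862396-40922308, plus strand), was the only member called lower in a single clone. An antisense gene, Gm26584, overlaps it, and the counting used strand. WT2 libraries held 31.4, 32.3 and 32.3 CPM untreated and 24.9, 25.1 and 25.5 CPM after IFNG. WT3 libraries held 27.9, 29.5 and 29.5 CPM untreated and 22.2, 22.5 and 24.8 CPM treated. KO2 libraries held 46.8, 50.5 and 51.3 CPM untreated and 36.3, 38.2 and 41.6 CPM treated. Treated and untreated libraries did not overlap in these 3 clones. The log2FC was -0.33 ± 0.06 (SE) in WT2, -0.31 ± 0.06 in WT3 and -0.36 ± 0.07 in KO2, with adjusted p-values of edgeR of 7.57e-05, 0.000635 and 0.00074. In WT1 the treated libraries (44.3, 48.8 and 49.9 CPM) overlapped the untreated ones (42.6, 44.3 and 48.4 CPM), with a log2FC of 0.07 ± 0.07. KO1 gave a log2FC of -0.18 ± 0.09 with an adjusted p of 0.15, and its libraries overlapped as well (39.0, 39.5 and 45.2 against 43.6, 44.9 and 54.4 CPM). Without the count filter, or in 1 fit over all 30 libraries, the fall in KO1 was called (adjusted p = 0.0233 and 0.0255).

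**Figure D3:**
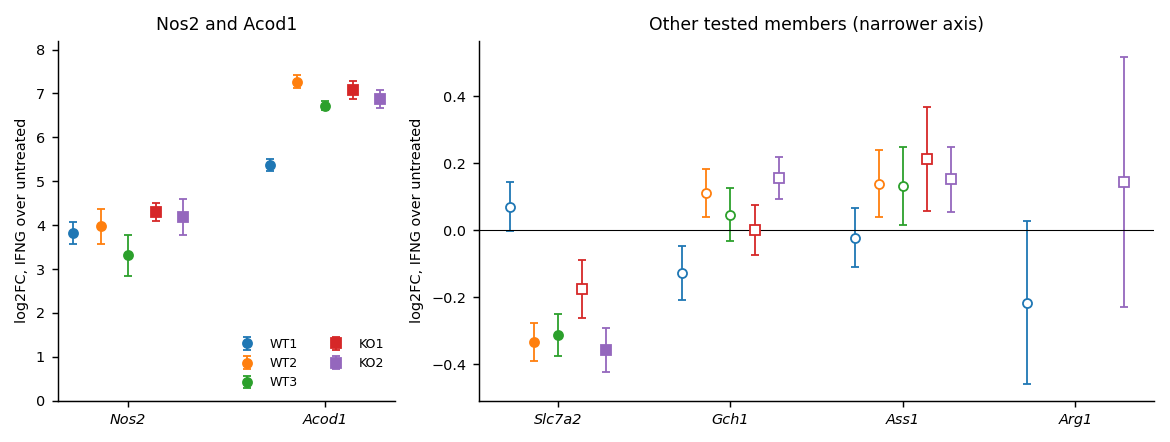
Response of the tested genes in each clone as log2FC of IFNG over untreated (points, with bars of 1 SE from 3 against 3 libraries); filled symbols passed an adjusted p of 0.05, and Arg1 passed the count filter in WT1 and KO2 alone. Nos2 and Acod1 lie between 3.31 and 7.27, while the right panel, on a narrower axis, spans -0.36 to 0.21.

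The arginases had few fragments. Arg1 (ENSMUSG00000019987.9, chr10:24915221-24927484, minus strand) was at 1.74, 2.0 and 2.69 CPM in untreated and 1.37, 1.57 and 2.52 CPM in treated WT1 libraries. In KO2 it was at 0.347, 0.439 and 0.605 CPM untreated and 0.319, 0.485 and 0.849 CPM treated, and in the other 3 clones no library held more than 7 Arg1 fragments. Neither tested clone was called (log2FC -0.22 ± 0.24 SE in WT1 and 0.14 ± 0.37 in KO2). Summed over all clones, 239 untreated and 183 treated Arg1 fragments gave a ratio of 0.866 at equal depth, with an exact 95% interval of 0.710 to 1.05 that covers counting error only. Arg2, the mitochondrial arginase (ENSMUSG00000021125.6, chr12:79130777-79156301, plus strand), had 13 fragments in the 15 untreated and 30 in the 15 treated libraries. The Arg2 ratio was 2.61 (1.32 to 5.45, counting error only), and 6 of the 30 treated fragments lay in a single WT2 library. On the other strand 2 genes, Gm48780 and Vti1b, overlap Arg2 exons. The counting used strand, and whether any Arg2 fragments came from these genes was not tested. Of 5 markers of alternative activation, Mrc1 alone reached 1 CPM, and Chil3, Retnla and Ccl17 had no fragment in any library. Mrc1 lay well above Arg1, at 5.80 to 49.0 CPM untreated and 5.85 to 55.1 CPM treated. The untreated sum of the 5 markers was lowest in WT1 (5.91 to 7.94 CPM) and highest in WT3 (47.8 to 49.0 CPM). Mean Arg1 had the reverse extremes, highest in WT1 and lowest in WT3.

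Ido1 (ENSMUSG00000031551.12, chr8:24584136-24597009, minus strand) stayed under 1 CPM throughout. WT1 held 18 untreated and 13 treated fragments over 3 libraries each, WT3 held 4 and 18, KO1 held 16 and 36, and KO2 held 9 and 30. WT2 held none in 3 untreated and 8 in 3 treated libraries, which at equal depth is at least 3.19-fold higher against a floor of 3 fragments over the group. Treated libraries lay above untreated ones without overlap in WT2, WT3, KO1 and KO2 and overlapped them in WT1. The ratio over all 15 against 15 libraries was 2.53 (exact 95% interval 1.78 to 3.64, counting error only), from 0.125 to 0.316 CPM.

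Set per kilobase of exon, the order of the genes changed with treatment. In all 5 untreated clones Ass1 stood first, at 3.94 to 16.5 CPM per kilobase, before Slc7a2 at 3.17 to 5.42, Gch1 at 2.94 to 3.85 and Acod1 at 0.232 to 3.26. After IFNG Acod1 stood first in all 5 clones, at 25.4 to 154 CPM per kilobase, and Ass1 followed at 4.27 to 16.4. Nos2 reached 10.3 CPM per kilobase in treated WT1, above Slc7a2 and Gch1 there, and 0.229 to 2.27 in the other treated clones, below both.

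The clones also differed in level. All 6 members tested differed among the 5 clones, both untreated and after IFNG (joint test of edgeR), where 73.2% and 69.3% of all genes tested did too. WT1 had the highest untreated mean of Nos2 (3.19 ± 0.49 CPM, SD, n = 3), 6.16 times that of KO1, the next clone. It was also highest in Acod1 (8.55 ± 1.66 CPM), Arg1 (2.14 ± 0.49 CPM), Ass1 (39.9 ± 3.61 CPM) and Gch1 (24.1 ± 1.75 CPM). The step from WT1 to the next clone was called for each of these 5 genes (log2 difference 2.63 ± 0.25 SE for Nos2, 1.5 ± 0.19 for Acod1, 2.19 ± 0.30 for Arg1, 0.35 ± 0.12 for Ass1 and 0.21 ± 0.07 for Gch1). For Ass1 the call was lost with DESeq2 (adjusted p = 0.0851), when library 1 or 2 of every clone was left out (0.315 and 0.128), and with TMM factors from chromosome 12 genes, where the difference was -0.0031. Between WT1 and KO1, 49.4% of all genes were called, between WT1 and KO2, 41.7%, and between WT1 and WT2, 51.7%. Between KO2 and KO1 it was 25%, and between KO2 and WT2, 39.1%. Nos2, Acod1 and Ass1 shared the untreated order WT1, KO1, KO2, WT2, WT3, in which KO1 and KO2 did not differ beyond their spread for Nos2 (edgeR adjusted p = 0.104), nor did KO2 and WT2 (0.103). Untreated Slc7a2 was highest in KO2 (49.6 ± 2.39 CPM), with KO2, KO1 and WT1 not called apart from their neighbours and a step of 0.50 ± 0.07 (SE) on the log2 scale down to WT2. WT2 and WT3 were called apart for none of the 6 members, untreated or treated (edgeR adjusted p from 0.112 to 0.942), and 9.3% and 6.76% of all genes were called between them.

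After IFNG the order of Nos2 stayed WT1, KO1, KO2, WT2, WT3, with every step called but the last. Of all genes, 43% were called between WT1 and KO1, 37.4% between WT1 and KO2, 15.6% between the KO clones and 32% between KO2 and WT2. For Acod1, KO1 (405 ± 98.2 CPM) and WT1 (355 ± 49.2 CPM) came first and were not called apart (log2 difference 0.20 ± 0.15 SE, edgeR adjusted p = 0.311). KO2 (181 ± 48.6 CPM) lay below WT1 by 0.97 ± 0.16 on the log2 scale and above WT2 (92.1 ± 12.7 CPM) by 0.96 ± 0.16. Gch1 differed least, with 18.7 to 23.2 CPM over the 5 clone means and no neighbouring clones called apart.

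Whether the responses themselves differed between clones was tested over all 30 libraries. Of 6 members tested, Acod1 and Slc7a2 were called (edgeR adjusted p = 0.00225 and 0.0213), against 3.68% of all genes. The fitted response of Acod1 was smaller in WT1 than in the other clones, by 1.88 ± 0.54 (SE) on the log2 scale against WT2, 1.33 ± 0.52 against WT3, 1.67 ± 0.32 against KO1 and 1.5 ± 0.36 against KO2. Of these, the difference from KO1 was called (edgeR adjusted p = 0.00266, where 0.854% of genes were). Slc7a2 was called between WT1, where its log2FC was 0.07, and each of WT2 (-0.43 ± 0.11, 1.39% of genes called), WT3 (-0.40 ± 0.11, 2.51%) and KO2 (-0.44 ± 0.10, 0.303%). Without WT1 the joint test called neither gene (edgeR adjusted p = 0.966 for Acod1 and 0.746 for Slc7a2). The Acod1 call was also lost when library 1 of every clone was left out (0.141). The Slc7a2 call was also lost without WT2 (0.0915), without WT3 (0.0637) and without any library number (0.0876 to 0.169). Nos2 responses were not called apart, with an adjusted p of 0.98.

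KO and WT clones were then compared. Pooled over clones, Nos2 and Acod1 rose in WT (log2FC 3.71 ± 1.02 SE and 5.62 ± 0.70) and in KO (4.28 ± 0.37 and 7.03 ± 0.40). The Nos2 call in pooled WT was lost when library 3 of every clone was left out (edgeR adjusted p = 0.0637). Nos2 and Acod1 were 2 of 5 members called in WT, where 28.6% of genes were (14.8% higher and 13.9% lower), and Slc7a2 (-0.27 ± 0.06) made 3 of 5 in KO, where 30.7% were (15.8% and 14.8%). These pooled fits had no term for clone. With such a term Slc7a2 was called lower in WT too (log2FC -0.17, edgeR adjusted p = 0.00944). It was also called there without WT1 (-0.33, edgeR adjusted p = 3.85e-05). Of 4 members tested between untreated KO and WT libraries, 1 was called, where 26.6% of all genes were (12.2% higher and 14.4% lower in KO): Slc7a2 was higher in KO by 0.45 ± 0.12 (edgeR adjusted p = 0.0109). That call was lost when any of the clones WT2, WT3, KO1 or KO2 was left out (edgeR adjusted p from 0.0582 to 0.0829) with counts summed per clone (0.431), and when library 1 or 2 of every clone was left out (0.061 and 0.125). After IFNG edgeR called none of 5 members, where 23.9% of genes were called (10.9% higher and 13% lower). None of the 5 had an unadjusted p under 0.05, and DESeq2 called none either. Leaving out WT1 changed both comparisons, with 6472 genes called untreated and 5992 after IFNG, against 3689 and 3258 with it. Without WT1, Acod1 was higher in KO by 1.88 both untreated and after IFNG, Nos2 by 2.37 after IFNG, Ass1 by 1.2 and 1.25, Slc7a2 by 0.68 and 0.72, and Gch1 by 0.15 untreated, all called. Except with summed counts, the libraries of a clone counted as separate in these comparisons of KO and WT. Their p-values therefore leave out part of the variation between clones.

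The interaction of treatment and genotype was called for 1 of 6 members, against 1.02% of all genes (0.679% with a higher and 0.336% with a lower response in KO). Acod1 rose more in KO than in WT, by 1.2 ± 0.31 (SE) on the log2 scale (edgeR adjusted p = 0.0452). This test counted the libraries of a clone as separate, so its p-value leaves out part of the variation between clones. Without WT1 the difference was 0.0027, with an adjusted p of 1, and with DESeq2 it was 0.63 with an adjusted p of 0.585. The edgeR call was also lost, with differences of 1.09 to 1.34, without WT3 (adjusted p = 0.0501), KO1 (0.429) or KO2 (0.0883), with summed counts (0.823) and when any library number was left out (0.155 to 0.329). With the clone as the unit, the mean response of Acod1 on the log2(CPM + 0.5) scale was 6.65 in the 2 KO and 5.88 in the 3 WT clones (two-sided exact permutation p = 0.2, where 0.1 is the smallest this design allows). Over the 8 members and 3 quantities (untreated level, treated level, response), the smallest exact permutation p was 0.1, for untreated Arg2, a gene with 0 to 5 fragments per library there.

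The partners of these enzymes moved less than Nos2 and Acod1 in pooled WT. Of the genes around tetrahydrobiopterin, Pts and Spr, which complete its synthesis after Gch1, had log2FC of 0.10 and -0.06 in pooled WT, and Qdpr, which recycles it, had -0.05. None of these 3 was called in pooled WT or pooled KO, where the median log2FC of all genes tested was -0.00276 and -0.00366. Among 8 tested synthases and regulators of nitric oxide synthesis, Por, the electron donor of microsomal P450 enzymes, fell in both (-0.31 ± 0.06 SE and -0.18 ± 0.05). It was the only 1 called, near the share of all genes that fell (13.9% in WT and 14.8% in KO). Of 6 tested genes of arginine transport and the urea cycle, none rose, while 2 fell in WT and 1 in KO. Of all genes, 14.8% rose and 13.9% fell in WT, and 15.8% and 14.8% in KO. Slc25a15, which carries ornithine into mitochondria, fell in both (-0.16 ± 0.06 and -0.21 ± 0.05), and Slc3a2, the heavy chain shared by several amino acid carriers, fell in WT (-0.12 ± 0.04).

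Of 16 tested genes of ornithine, polyamine and proline metabolism, 4 rose and none fell in WT (14.8% and 13.9% of all genes), and 4 rose and 3 fell in KO (15.8% and 14.8%). Odc1, which turns ornithine into putrescine, rose in all 5 clones and more so in KO (0.57 ± 0.07 SE in WT and 0.97 ± 0.08 in KO, interaction 0.40 ± 0.07 with an edgeR adjusted p of 0.00156). The interaction test counted the libraries of a clone as separate, so its p-value leaves out part of the variation between clones. Whether this interaction holds without WT1, with DESeq2 or with the clone as the unit was not tested. Paox, a polyamine oxidase, and Gatm, which makes guanidinoacetate from arginine, rose in both, and Aldh18a1, which starts proline synthesis, rose by 0.22 ± 0.04 in WT. Of the 17 citrate cycle genes, none rose, 2 fell in WT and 4 in KO, where 13.9% and 14.8% of all genes fell, so that the falls in WT were near the share of all genes. Idh1, the cytosolic isocitrate dehydrogenase, fell by 0.41 in WT and 0.38 in KO on the log2 scale, and Slc25a10, the dicarboxylate carrier, fell by 0.24 and 0.33.

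Of 10 tested tryptophan and kynurenine genes, 4 rose and none fell in WT, where 14.8% and 13.9% of all genes did, and 5 rose and 2 fell in KO, where 15.8% and 14.8% did, with median log2FC of 0.46 and 0.39. Kyat3, a kynurenine aminotransferase, rose by 1.14 ± 0.10 (SE) in WT and 1.19 ± 0.06 in KO, and Wars, the tryptophanyl-tRNA synthetase, by 0.79 ± 0.08 and 0.81 ± 0.11. Ido2, the paralog of Ido1, rose by 1.16 ± 0.22 and 1.59 ± 0.17 from a median of 0.722 to 1.90 CPM. Ahr, the receptor that kynurenine activates, rose by 0.97 ± 0.21 in WT, and its 0.52 ± 0.19 in KO was not called.

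Genes typical of a microbial signal moved in both directions. Il6, Il12b, Cxcl1 and Lcn2 stayed under 1 CPM in every clone and treatment. Of 9 tested in WT, 2 rose (Tnf by 0.49 ± 0.17 SE and Ccl4 by 0.52 ± 0.15) and 2 fell (Cxcl2 by 3.08 ± 0.41 and Ccl3 by 0.46 ± 0.14), against 14.8% and 13.9% of all genes. Of 10 tested in KO, 4 rose and Cxcl2 fell (log2FC -1.81 ± 0.21), against 15.8% and 14.8% of all genes. These pooled fits had no term for clone, and single clones gave more calls. In WT1, 3 rose and 3 fell of 10 tested, in WT2, 5 and 3 of 9. In WT3 it was 6 and 3 of 10, in KO1 6 and 1 of 9, and in KO2 5 and 3 of 11. Of all genes, 11.8%, 17.4%, 18.6%, 16.2% and 13.9% rose in these clones, and 9.47%, 17%, 17.5%, 13.2% and 13.2% fell. The response was called higher in KO than in WT for 5 of 11 tested (Tnf, Cxcl2, Ptgs2, Ccl3 and Nfkbiz), where 0.679% of all genes were. For Cxcl2 this was a smaller fall. Between single clones the response was called different for 7 of the 11, against 3.68% of all genes. Whether the calls between KO and WT hold without WT1 or with DESeq2 was not tested. Those calls counted the libraries of a clone as separate, so they leave out part of the variation between clones. The list was chosen with earlier results of these data known, so its counts describe the listed genes and are no test of the list. Tnf, Ccl3 and Ccl4 are inflammatory cytokines and chemokines, and Cxcl2 attracts neutrophils.

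**Figure D4:**
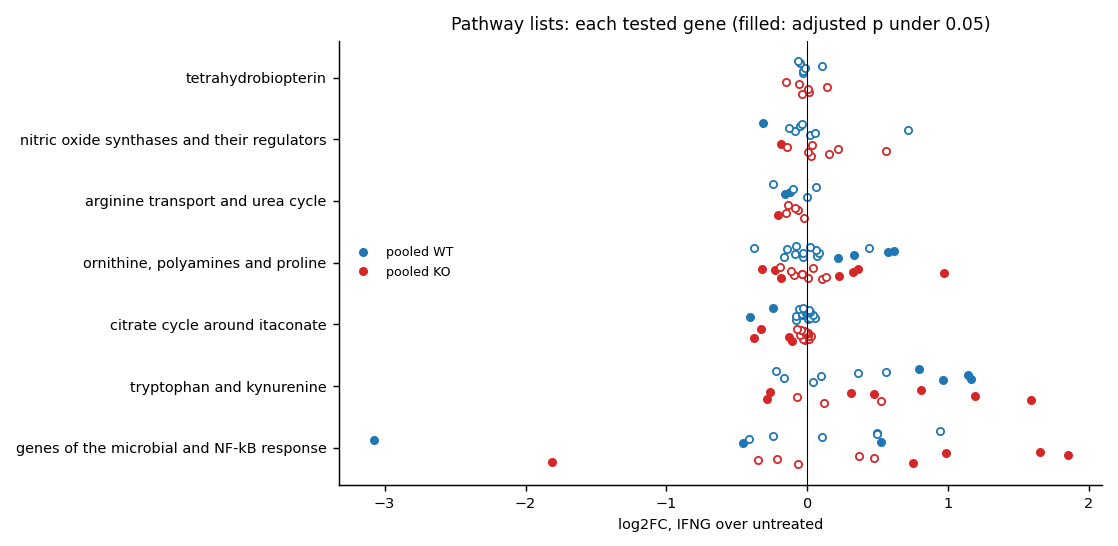
Response of each tested gene of the 7 pathway lists as log2FC of IFNG over untreated, in pooled WT (blue, 9 against 9 libraries) and pooled KO (red, 6 against 6 libraries); filled points passed an adjusted p of 0.05. Most genes lie near 0, the tryptophan and kynurenine genes reach 1.59, and Cxcl2 lies at -3.08 in WT.

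The genes most like each member were found by the correlation of log2(CPM + 0.5) over the 30 libraries, among 12992 other genes that reached a mean of 1 CPM in some clone and treatment. These libraries share clones and treatments, so the values describe a pattern and carry no test. Nearest to Acod1 were Pde4b (r = 0.994), Sp140 (0.986) and Csrnp1 (0.985), a cAMP phosphodiesterase, a bromodomain protein and a nuclear protein. Nearest to Nos2 were Mxd1 (0.946), Hk3 (0.937) and Upp1 (0.935), a partner of Max, a hexokinase and a uridine phosphorylase. Arg1 was nearest to Mmp13 (0.974), Gbe1 (0.968) and Appl2 (0.958), and Ass1 to Aox2 (0.965), Gm6166 (0.961) and Fabp5 (0.960). Slc7a2 was nearest to Swap70 (0.945), Cables2 (0.935) and Tmem176b (0.935). For Gch1 the highest correlations were lower, with Map2k1 (0.825), Cul7 (0.813) and Bsg (0.812).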

How the data were processed

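Polyadenylated RNA of 30 libraries was sequenced. Per the methods and labels, the authors used BBDuk for trimming, HISAT2 2.1.0 for alignment to the mouse build mm10, and then counted fragments over exons with featureCounts 1.6.2 in reversely stranded mode. The deposited table holds these counts without normalization. Table headers name Gencode vM18, the methods a RefSeq annotation. The 13 other tables held the same counts. Columns wtc1 and wtc3 were assigned to WT2 and WT3 through tables of single clones. Replicate libraries differed by more than sampling noise (chi-square per degree of freedom from 1.88 to 17.9). Labels mention several RNA inputs and adapters without assigning libraries, so batches could not be checked.

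Counts were tested with edgeR 4.0.16 (R 4.3.3, glmQLFTest) after filterByExpr and TMM, with Benjamini-Hochberg adjustment and a threshold of 0.05. An SE is the size of a log2FC over the root of its F statistic. In simulated WT1 data with 200 changed genes of 14088, edgeR recovered 196 with 11 false calls. Alternatives were DESeq2 1.42.0, RLE factors, other count filters, 1 fit of all libraries, a clone term, summed counts, chromosome 12 TMM factors, log2(CPM + 1), and leaving out libraries or clones. All 8 members are named. From each list up to 4 genes with the largest log2FC past the threshold in pooled WT are named, and 3 nearest genes by r for members reaching 1 CPM. Other list genes were chosen after their values were seen. Members and lists were chosen with earlier results of these data known. Some items of the lists are not reported here.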

Additional observations from a re-analysis of the deposited data

Results flagged for a closer look

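Acod1 differed between genotypes in its response to IFNG, by 1.2 ± 0.31 (SE) on the log2 scale (KO minus WT, edgeR interaction, adjusted p = 0.0452). Without clone WT1 the difference was 0.0027 with an adjusted p of 1, with DESeq2 it was 0.63 with an adjusted p of 0.585, and the call was also lost without WT3, KO1 or KO2, with summed counts and when any library number was left out. The responses of the 5 clones differed for Acod1 (edgeR adjusted p = 0.00225) and for Slc7a2 (0.0213), and both of these calls were lost without clone WT1. Arg2 had a single high library in 2 of the 32 groups of 9 or 6 pooled libraries examined. The highest of the 9 treated WT libraries held 0.380 CPM (6 fragments, clone WT2), and the highest of the 6 untreated KO libraries held 0.174 CPM (5 fragments, clone KO2). For normal values from a single population, chance flags about 1 group in 20 in this way. Pooled clones and counts near the floor need not follow that rate.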

How the results depend on the processing

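Within single clones, Nos2 and Acod1 were called higher under every alternative that gave a value. With at least 10 counts in every library, neither was tested in WT2 or WT3, nor was Nos2 in KO2. In WT2 and WT3, Nos2 passed the main count filter through its treated libraries, and it was also called there without a filter. The number of members called moved by more than 1.5 times in the cases that follow, and by no more than that in others, among them 4 without a count filter in WT3, KO2 and pooled KO, 3 in pooled WT with a clone term or without WT1. Without a count filter it was 5 in WT2 and 5 in KO1, and with at least 10 counts in every library it was 1 in WT2, 1 in WT3, 0 in pooled WT, 0 for the genotype interaction, 1 for the clone responses and 3 for untreated levels, a filter that leaves out members with low counts. Leaving out 1 library of each clone gave 1 to 2 in pooled WT, 0 to 1 for untreated KO against WT, 0 to 0 for the interaction and 0 to 1 for the clone responses. Without clone WT1, KO against WT called 4 untreated and 4 after IFNG, where 6472 and 5992 of all genes were called. The interaction and the clone responses called 0 members without WT1, and 564 and 491 of all genes. For the other settings the share of all genes called is not given, so those counts describe the members alone. Untreated KO against WT called 0 without WT2, WT3, KO1 or KO2 and 0 with counts summed per clone. The interaction called 0 without WT3, KO1 or KO2, 0 with summed counts and 0 with DESeq2. The clone responses called 1 without WT2 and 1 without WT3. TMM factors from chromosome 12 genes gave 1 call after IFNG. With log2(CPM + 1), 2 quantities reached the smallest exact permutation p over clones, against 1.

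Signs that turned were mostly of values near 0. For Gch1 the response in KO1 was -0.00185 with DESeq2, -0.00285 with RLE factors, -0.018 without a filter and -0.0298 in 1 fit of all libraries, and in pooled WT 0.00072 with at least 10 counts, 0.00072 with a clone term and 0.0685 without WT1. Gch1 in untreated KO against WT was -0.039 without WT2, -0.0606 without WT3 and -0.0031 without KO2, after IFNG -0.0019 without KO2, and its interaction -0.0258 without KO2. Untreated KO against WT became 1.88 for Acod1 without WT1, and for Ass1 -0.0856 without WT2, -0.13 without WT3 and -0.40 without KO1. After IFNG it became 2.37 for Nos2 without WT1 and -0.27 for Ass1 without KO1. The interaction became -0.41 for Arg1 and 0.0506 for Slc7a2 without WT1, and -0.11 for Arg1 without KO2. With chromosome 12 factors, WT1 over KO1 became -0.0031 for untreated Ass1 and -0.14 for treated Slc7a2. Leaving out 1 library gave -0.0872 to 0.0581 for Ass1 in WT1, -0.0196 to 0.0993 for Gch1 in WT3, -0.0337 to 0.0644 in KO1, -0.0273 to 0.0104 in pooled WT and -0.0272 to 0.0341 in untreated KO against WT, -0.19 to 0.42 for Arg1 in KO2 and -0.0961 to 0.45 for its interaction. The cause was not tested. No paired analysis was possible because the column names carry no replicate numbers.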
